A study of Mus musculus with 17 samples.

Results

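The 4 simple epithelial keratins Krt7, Krt8, Krt18 and Krt19 were followed through 17 RNA libraries of mouse stem-cell-derived cells. They were taken by gene symbol, each symbol matched 1 Ensembl gene, and they are 4 of the 49671 genes in the count tables. Keratins are the intermediate filament proteins of epithelial cells. A filament is built from pairs of chains, each with a type II chain (Krt7, Krt8) and a type I chain (Krt18, Krt19), so that neither type forms filaments alone. Krt8 and Krt18 are the first keratins of the mouse embryo and form the usual pair of single-layered epithelia. Krt7 is found with them in ducts and in the trophoblast, and Krt19, the smallest keratin, lacks most of the tail domain.

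The cells were R1 mouse embryonic stem cells with a FOXA2-Venus genotype, which every group shared. The series concerns neural tube organoids and how their floor plate forms, the strip of cells along the ventral midline that expresses the forkhead factor FOXA2. Each treatment had a FOXA2-negative and a FOXA2-positive fraction. RA cells had 18 hours of retinoic acid, while BMP4 and LDN cells had 18 hours of retinoic acid, 6 hours with no treatment and then 8 hours of either BMP4 or the agent given in the labels as LDN. BMP4 is a secreted bone morphogenetic protein. No later hours are given for RA, so in comparisons with RA the agent and the time cannot be told apart. Groups held 3 libraries each, except FOXA2-positive LDN with 2, numbered 2 and 3. R1 is a single cell line, and separate cultures are not stated for the replicates, so the spread behind each p-value may be technical.

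Libraries held 8435845 to 10796136 gene counts. Levels are given as CPM, counts scaled to the size of the library, with edgeR's TMM factor for composition unless said otherwise. Foxa2 itself lay between 0 and 2.94 CPM in the FOXA2-negative libraries and between 18.4 and 44.2 CPM in the FOXA2-positive libraries, so no library went against its sort. The RA libraries numbered 1 had 6.94% and 7.43% of gene counts on mitochondrial genes, against at most 4.81% in the others, and the results below that use RA libraries are also given without them where the call of a gene named changes. The neural progenitor gene Sox2 averaged 54.9 to 118 CPM over the 6 groups, the pluripotency gene Pou5f1 52.2 to 64.1 CPM in the FOXA2-negative groups and 9.12 to 13.3 CPM in the FOXA2-positive groups. These are bulk libraries, in which fewer cells of a type and less RNA per cell cannot be told apart.

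Krt7, Krt8 and Krt18 lie in the keratin cluster of chromosome 15 and Krt19 in that of chromosome 11 (GENCODE M21 on GRCm38, the assembly also called mm10). Krt8 (ENSMUSG00000049382, chr15:101996698-102004482, minus strand) and Krt18 (ENSMUSG00000023043, chr15:102028180-102032027, plus strand) are neighbours that point away from each other, with 23698 bases between their starts. Krt7 (ENSMUSG00000023039) spans chr15:101411043-101430313 on the plus strand and Krt19 (ENSMUSG00000020911) chr11:100140810-100148665 on the minus strand. Krt7 overlaps the antisense gene Gm671 and Krt8 the long noncoding gene Gm36026 on the opposite strand. The strand setting of the counting is not given in the sources used here, so reads from such partners cannot be told apart from keratin reads.

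The sequences upstream of Krt8 and Krt18 are shown because the levels of these neighbours went together across libraries. They come from the RefSeq promoter table (GRCm38.p6), 5′ to 3′ on the gene's strand, cut where the GENCODE gene begins. They run from base -250 to base -141 for Krt8 and to base -37 for Krt18, counted from the RefSeq start. Capitals mark motif matches.
Krt8, chr15:102004483-102004592, minus strand: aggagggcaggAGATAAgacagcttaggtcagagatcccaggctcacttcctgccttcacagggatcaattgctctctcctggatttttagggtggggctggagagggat
Krt18, chr15:102027966-102028179, plus strand: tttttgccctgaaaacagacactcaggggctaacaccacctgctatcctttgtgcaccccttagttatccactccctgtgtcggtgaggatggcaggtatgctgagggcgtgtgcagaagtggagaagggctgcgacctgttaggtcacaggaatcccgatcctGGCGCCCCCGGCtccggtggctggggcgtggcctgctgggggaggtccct
The capitals in Krt8 are AGATAA, the GATA motif, at -239. Those in Krt18 are the SMAD1/5 element GGCGCC at -86 and, overlapping it, GCCCCCGGC at -83, a match to the AP-2 motif GCCNNNGGC. Motifs were searched on both strands of the window from 250 bases before to 50 after the RefSeq start of 27025 genes. In that window Krt8 also held the TATA box letters TATAAA at -1, with TTTATA, the same motif on the other strand, overlapping it at -3, and Krt7 held the AP-2 motif at -146 and -70. The share of all windows with a match was 14.16% for TATAAA, 16.51% for GCCNNNGGC, 11.96% for GGCGCC and 11.41% for AGATAA. The AP-1 motif TGANTCA (7.93% of windows) and the KLF/SP motif GGGGCGGGG (11.58%) had no match in these letters in Krt7, Krt8 or Krt18. A match describes the letters and is not evidence of binding.

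The members were nearly all of the keratin RNA in these cells. The count tables list 53 keratin genes, of which 31 had a count and 15 passed the filter on low counts, all 4 members among them. Krt7, Krt8, Krt18 and Krt19 together took 88.4% to 96.7% of keratin counts in a library. Krt18 alone made up 51.9% to 69.8% of the members' counts and Krt8 16.3% to 36.9%. The share of Krt19 ran from 1.35% in a FOXA2-negative LDN library to 20.8% in a FOXA2-positive RA library. The next keratins were Krt10, of the upper epidermis, with a mean of 6.51 CPM and Krt15, a basal keratin gene 4882 bases from Krt19, with 4.88 CPM. Per kilobase of exon, where genes can be compared, FOXA2-negative RA cells had 103 ± 17.2 CPM per kb of Krt18, 42.5 ± 11.2 of Krt8, 9.33 ± 2.69 of Krt19 and 1.68 ± 0.64 of Krt7 (SD, n = 3). The exons of Krt7 add up to 7049 bases because its 5 transcripts differ, while its longest coding transcript has 4094, so its level per length is a low estimate.

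**Figure D1:**
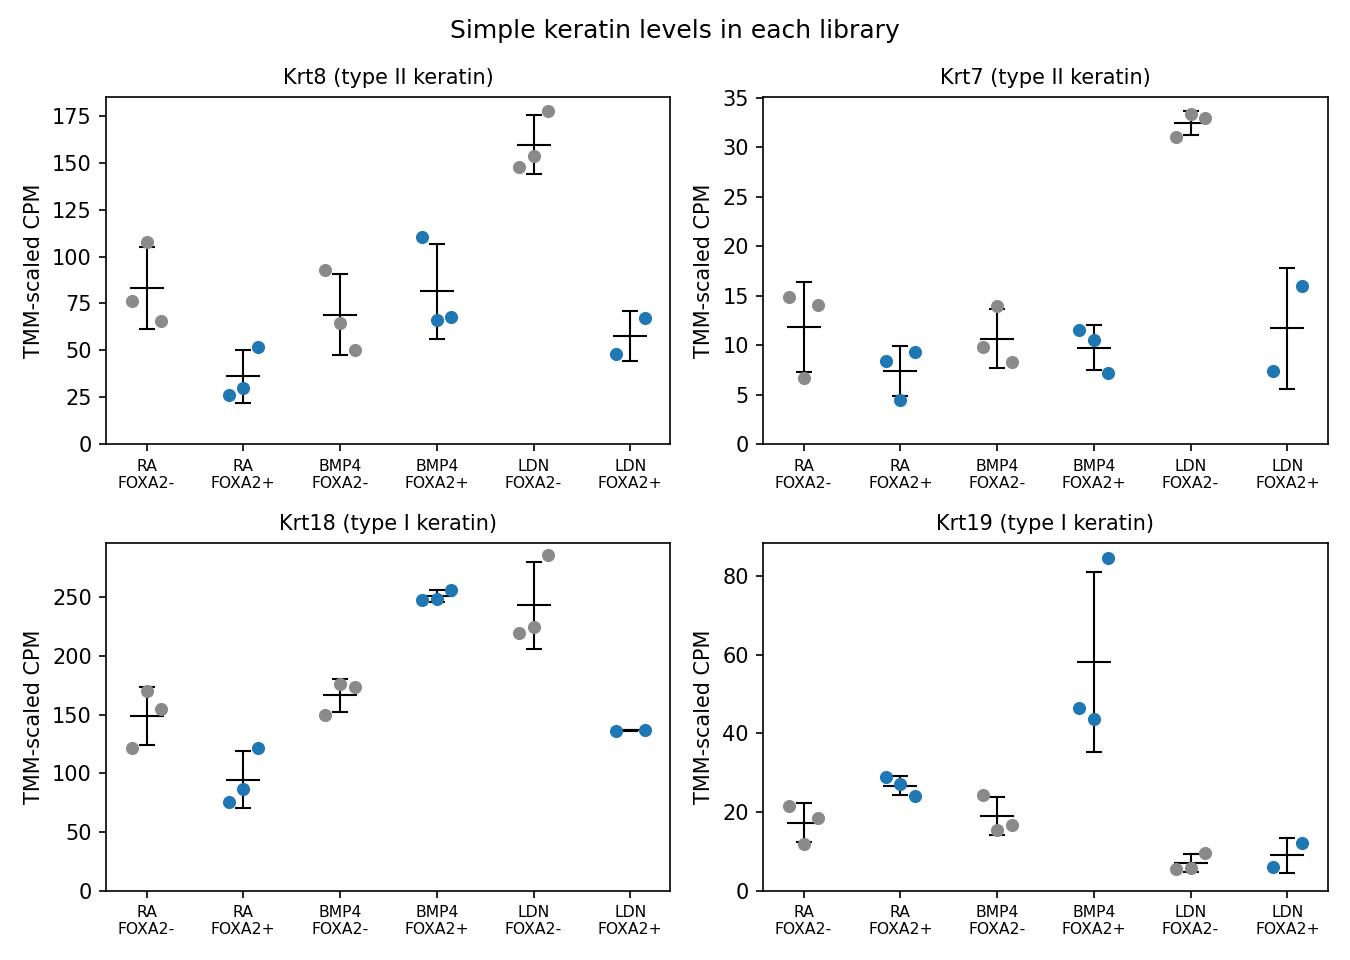
TMM-scaled CPM (vertical axis, from 0) of each keratin in every library (points; grey FOXA2-negative, blue FOXA2-positive) of the 6 groups on the horizontal axis, with the mean and SD as black bars (n = 3, and n = 2 for FOXA2-positive LDN). Krt7 and Krt8 stand highest in FOXA2-negative LDN cells, Krt19 in FOXA2-positive BMP4 cells and Krt18 in both.

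Without the TMM factor, the sum was 265 ± 27.8 CPM in FOXA2-negative and 166 ± 36.9 CPM in FOXA2-positive RA cells (SD, n = 3 each). It was 269 ± 12.5 and 397 ± 32.7 with BMP4 (n = 3 each), and 439 ± 52.6 (n = 3) and 206 ± 18.2 (n = 2) with LDN. The FOXA2-positive libraries were thus below the FOXA2-negative ones in RA and LDN and above them in BMP4, with no overlap in any of the 3.

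**Figure D2:**
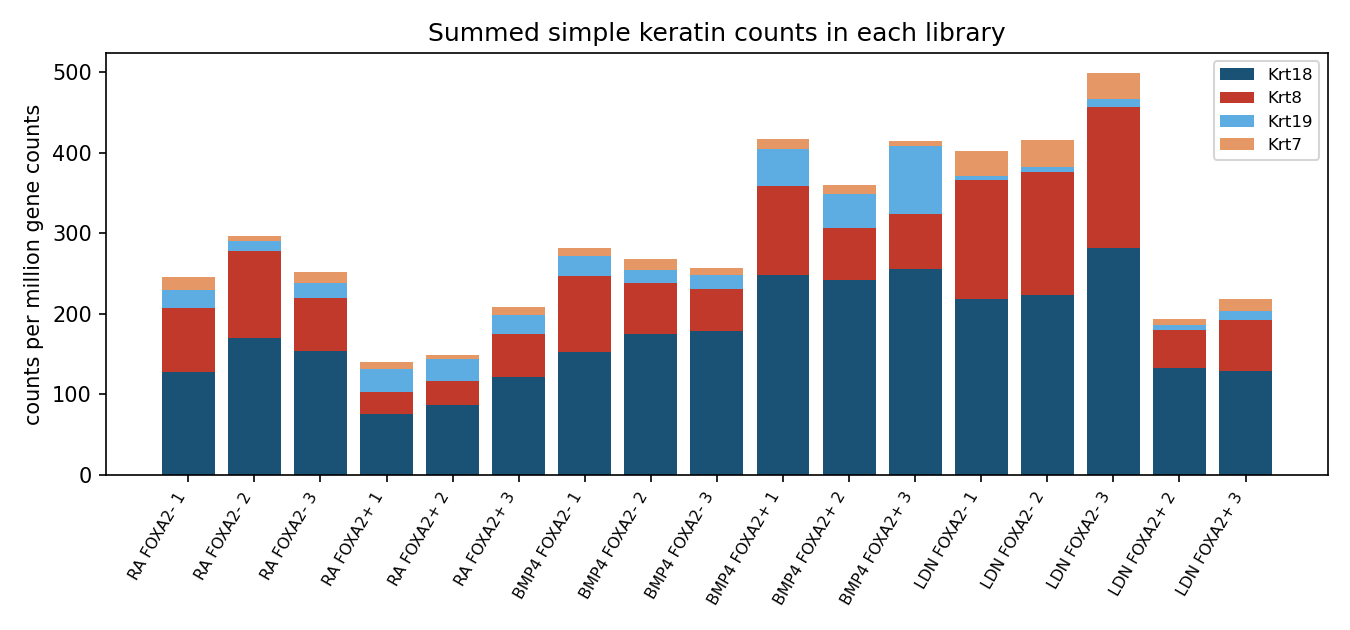
Stacked CPM without the TMM factor (vertical axis, from 0) of Krt18, Krt8, Krt19 and Krt7 in each of the 17 libraries on the horizontal axis. The stacks run from 141 CPM in a FOXA2-positive RA library to 499 in a FOXA2-negative LDN library, and the Krt19 layer is thinnest in the LDN libraries.

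Krt8, the main type II chain, was lower in FOXA2-positive cells in RA and LDN and similar in level between the fractions in BMP4. In RA its level was 76.1, 107.9 and 65.9 CPM in the FOXA2-negative libraries numbered 1 to 3 and 26.3, 29.9 and 52.1 CPM in the FOXA2-positive ones. The ranges did not overlap, and the log2 fold change was -1.21 ± 0.27 (SE; edgeR's quasi-likelihood test, adjusted p = 0.0193). Krt8 was the only member called in RA, where 1.19% of all genes tested were called. Without both RA libraries numbered 1 the change was -1.08 and the call was lost (edgeR adjusted p = 0.131). It was also lost in a model of the RA groups alone (0.115) and without FOXA2-negative library 2 (0.156), FOXA2-positive library 1 (0.12) or FOXA2-positive library 2 (0.133). The call was kept in 9 of 14 alternatives. Among these was the fit with the replicate number as a block, where edgeR called 2 members, Krt8 and Krt18, and 362 genes in all.

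With LDN, Krt8 reached 147.7, 153.8 and 177.5 CPM in FOXA2-negative libraries, above every other library of the series. The FOXA2-positive LDN libraries had 48.1 and 67.2 CPM. The log2 fold change between the fractions was -1.47 ± 0.31 (SE; edgeR adjusted p = 0.0146), 1 of 2 member calls in LDN, where 0.994% of genes were called. The call was lost without FOXA2-positive library 2 (0.216), FOXA2-positive library 3 (0.0604) or FOXA2-negative library 3 (0.0571). With BMP4 the levels were 92.6, 64.6 and 49.99 CPM in FOXA2-negative and 110.5, 66.2 and 67.8 CPM in FOXA2-positive libraries. These ranges overlapped, and the change was 0.24 ± 0.26 (log2, SE; edgeR adjusted p = 0.835).

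Averaged over the 3 treatments, Krt8 was lower in FOXA2-positive cells by 0.81 on the log2 scale (SE 0.16, edgeR adjusted p = 0.0017). This call was kept in all 24 alternatives run. The average joins the falls in RA and LDN with BMP4, where Krt8 did not fall (0.24). In that averaged comparison 2 of 4 members were called, against 7.62% of all genes. Between treatments edgeR, as fitted to all 6 groups after the filter on low counts, called Krt8 in none of the comparisons, while DESeq2 called it in 2. In FOXA2-negative cells BMP4 was below LDN with no overlap (-1.21 ± 0.27, edgeR adjusted p = 0.0535), called by DESeq2 (0.0104) and by edgeR in a model of those groups alone (0.035). In FOXA2-positive cells BMP4 was above RA with no overlap (1.17 ± 0.27, edgeR adjusted p = 0.131), called by DESeq2 (0.0273). With no filter edgeR called both of these (adjusted p = 1.83e-05 and 5.41e-05) and LDN against RA in FOXA2-negative cells (0.00674). In the order of group means, FOXA2-negative LDN stood apart at 159.6 ± 15.7 CPM (SD, n = 3), and each of the other 5 groups, from 83.3 down to 36.1 CPM, overlapped its neighbour.

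Krt7, the minor type II chain, was most abundant in FOXA2-negative LDN cells. These 3 libraries had 31.0, 33.3 and 32.9 CPM, while the other 14 lay between 4.51 and 16.01 CPM. FOXA2-positive LDN libraries had 7.38 and 16.01 CPM, and the fractions did not overlap (-1.47 ± 0.47, SE). The test did not call this difference (edgeR adjusted p = 0.165). Against RA, FOXA2-negative LDN cells differed by 1.45 ± 0.41 (log2, SE; edgeR adjusted p = 0.434), again without overlap. In RA its levels were 14.8, 6.66 and 14.1 CPM in FOXA2-negative and 8.41, 4.51 and 9.31 CPM in FOXA2-positive libraries, and in BMP4 9.77, 13.98 and 8.30 against 11.5, 10.6 and 7.17 CPM. Both pairs of ranges overlapped. Over the treatments the change in FOXA2-positive cells was -0.76 ± 0.25 (SE; edgeR adjusted p = 0.0606). The call of this averaged change depended on the setting: edgeR made it with no TMM factor (0.0489), with the filter of 5 CPM (0.0495) and with the replicate block (0.0447), and DESeq2 made it too (0.03, with 10.5% of genes called). The block also joins same-numbered BMP4 and LDN fractions, which were taken as unpaired. As fitted to all 6 groups, edgeR called Krt7 in none of the 14 comparisons, and DESeq2 called it in this one and lower with BMP4 than with LDN in FOXA2-negative cells (0.0224).

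Krt18, the partner of Krt8 and the most abundant member, was highest in FOXA2-positive BMP4 cells and in FOXA2-negative LDN cells. The FOXA2-positive BMP4 libraries had 247.9, 248.1 and 256.5 CPM, a narrow range, and the FOXA2-negative BMP4 libraries had 149.6, 175.9 and 173.2 CPM. The fractions did not overlap. The log2 fold change of 0.59 ± 0.17 was not called by edgeR (SE; adjusted p = 0.107) and was called by DESeq2 (0.58, 0.043, with 3.0% of genes called). In RA the levels were 121.6, 170.0 and 154.3 CPM in FOXA2-negative and 75.2, 86.5 and 121.4 CPM in FOXA2-positive libraries, so the ranges were separate by a small margin. The change in RA was -0.65 ± 0.17 (SE; edgeR adjusted p = 0.0579). Replicate numbers were taken to pair the RA libraries. With the number as a block the value was -0.67 and the difference was called (edgeR adjusted p = 0.0089). DESeq2 called it as well (0.0126, with 2.97% of genes called).

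In LDN, Krt18 stood at 219.3, 224.2 and 285.6 CPM in FOXA2-negative and at 136.2 and 137.0 CPM in FOXA2-positive libraries. It fell by 0.83 on the log2 scale in FOXA2-positive cells (SE 0.19; edgeR adjusted p = 0.0306). The call was lost without FOXA2-positive library 2 (0.215), FOXA2-positive library 3 (0.242) or FOXA2-negative library 3 (0.164). Among FOXA2-positive cells, Krt18 rose with BMP4 relative to RA by 1.41 ± 0.17 (log2, SE; edgeR adjusted p = 0.000131). This was the only member edgeR called in that comparison, where it called 0.0786% of genes, and the call was kept in all 14 alternatives. DESeq2 called Krt18 and Krt8 there, with 0.325% of genes called. Relative to LDN, the rise with BMP4 in FOXA2-positive cells was 0.88 ± 0.19 (edgeR adjusted p = 0.0414), 1 of 2 member calls against 0.32% of genes. That call was lost when any of the 5 libraries was left out (adjusted p from 0.0957 to 0.311), with the change between 0.86 and 0.89. In the order of means, FOXA2-positive BMP4 (250.8 ± 4.92 CPM, n = 3) and FOXA2-negative LDN (243.0 ± 37.0, n = 3) overlapped and stood above the rest. FOXA2-negative BMP4 (166.2 ± 14.5, n = 3), FOXA2-negative RA (148.6 ± 24.7, n = 3) and FOXA2-positive LDN (136.6 ± 0.53, n = 2) followed with overlap between neighbours. FOXA2-positive RA was below them at 94.4 ± 24.1 CPM (n = 3).

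Krt19, the type I chain without a long tail, had another pattern: its level was higher in FOXA2-positive cells and lowest with LDN. With BMP4 the FOXA2-positive libraries had 46.4, 43.6 and 84.5 CPM and the FOXA2-negative ones 24.4, 15.5 and 16.7 CPM. The ranges did not overlap, and Krt19 rose by 1.62 ± 0.35 (log2, SE; edgeR adjusted p = 0.0169), the only member called in BMP4, where 0.921% of genes were called. The call was lost without FOXA2-positive library 3 (0.173), the highest of the group, and without FOXA2-negative library 2 (0.114) or 3 (0.0719). In RA the levels were 21.6, 11.9 and 18.4 CPM in FOXA2-negative and 28.9, 27.1 and 24.1 CPM in FOXA2-positive libraries, without overlap (0.63 ± 0.34, edgeR adjusted p = 0.531). In LDN they were 5.45, 5.83 and 9.61 against 5.87 and 12.2 CPM, which overlapped (0.36 ± 0.40, 0.788).

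Over the treatments Krt19 rose in FOXA2-positive cells by 0.87 ± 0.21 (log2, SE; edgeR adjusted p = 0.00931), a call lost without FOXA2-positive LDN library 3 (0.0868). Between BMP4 and LDN it was called in FOXA2-positive cells, at 2.70 ± 0.43 (log2, SE; edgeR adjusted p = 0.00111), lost without FOXA2-positive LDN library 2 (0.0979). Over both fractions the difference was 2.07 ± 0.28 (edgeR adjusted p = 6.37e-05), called in all 18 alternatives and the only member call, against 0.786% of genes. In FOXA2-negative cells, BMP4 and LDN libraries did not overlap either (1.43 ± 0.36, 0.132). FOXA2-positive BMP4 had the highest mean, 58.2 ± 22.9 CPM (SD, n = 3), and did not overlap the next group, FOXA2-positive RA at 26.7 ± 2.39 CPM. The difference between these groups was not called (1.12 ± 0.34, log2, SE; edgeR adjusted p = 0.5996). Every other step in the order overlapped, down to FOXA2-negative LDN at 6.96 ± 2.30 CPM.

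**Figure D3:**
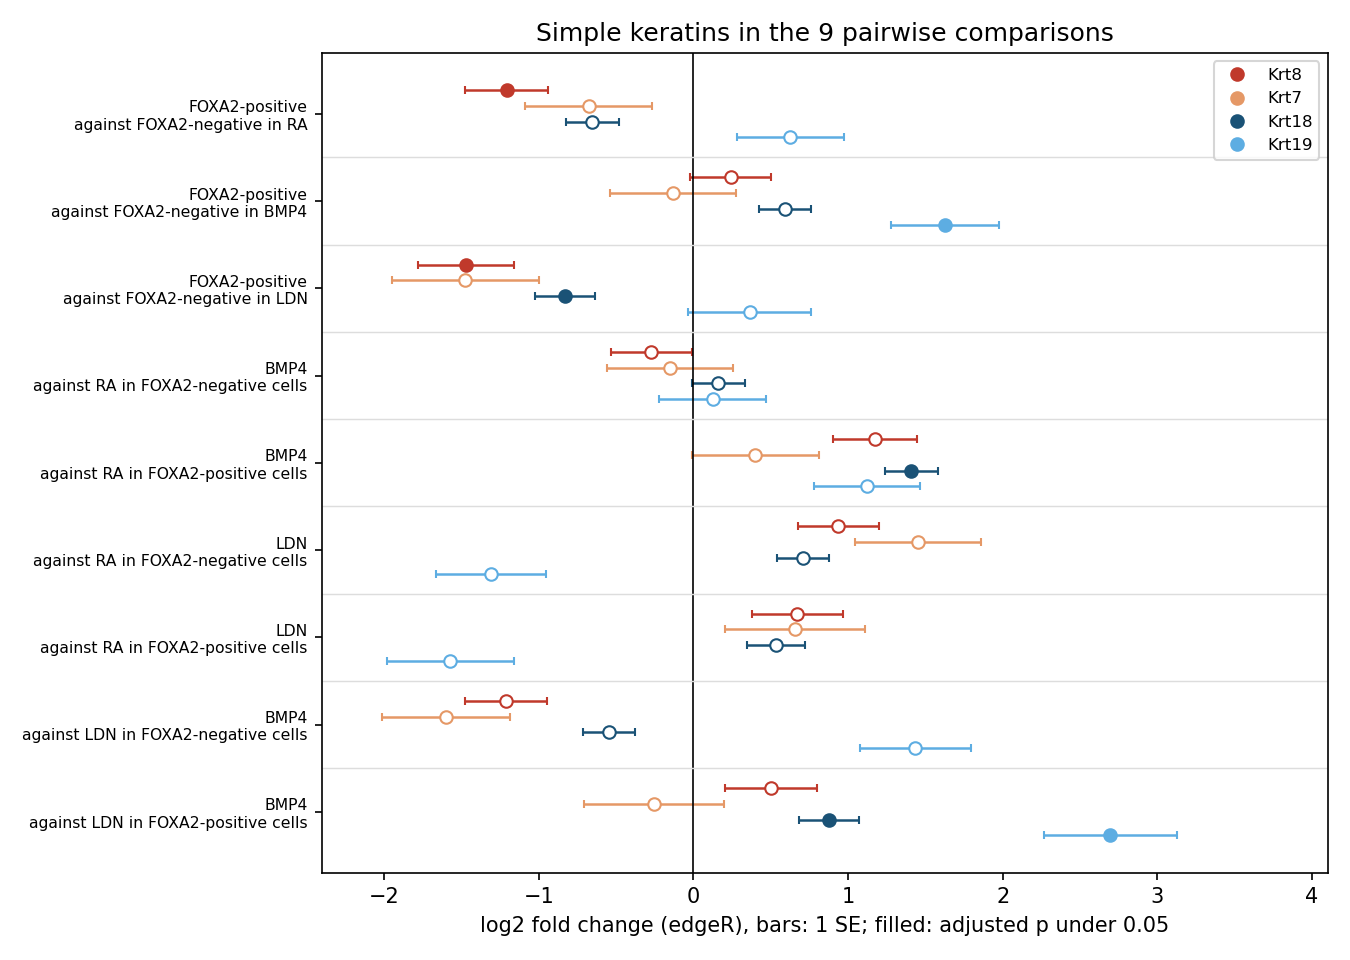
Log2 fold changes from edgeR (horizontal axis; bars 1 SE) of the 4 keratins in the 9 pairwise comparisons listed on the vertical axis, with filled points where the adjusted p was under 0.05. Krt19 lies to the right of Krt8 in all 3 fraction comparisons. There Krt18 lies right of 0 in BMP4 and left of it in RA and LDN. Krt8 lies left of 0 in RA and LDN and within 1 SE of 0 in BMP4.

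In the remaining comparisons between treatments edgeR called no member. With BMP4 against RA in FOXA2-negative cells neither edgeR nor DESeq2 called one (0.0786% of genes called by edgeR). No member had an unadjusted p under 0.05 there, against 7.36% of genes, and all 4 overlapped, while 10.5% of genes did not. With LDN against RA in FOXA2-negative cells edgeR called 0.0393% of genes. All 4 members had an unadjusted p under 0.05 and none overlapped, where 7.5% of all genes had such a p and 12.3% did not overlap. Krt7, Krt8 and Krt18 were above RA there and Krt19 below it, and DESeq2 called 1 member, Krt18 (adjusted p = 0.0399), against 0.219% of genes. In FOXA2-positive cells LDN against RA gave no edgeR call, 3 members with an unadjusted p under 0.05, against 9.35% of genes, and 1 call by DESeq2, Krt19 (-1.55, adjusted p = 0.028). The shares of genes called were 0.208% by edgeR and 1.5% by DESeq2. BMP4 against LDN in FOXA2-negative cells gave no edgeR call of a member, with 0.196% of genes called. All 4 members had an unadjusted p under 0.05 and none overlapped, where 7.06% of all genes had such a p and 11.2% did not overlap. DESeq2 called 3 members there, Krt7 (0.0224) and Krt8 (0.0104) lower and Krt19 (0.0211) higher with BMP4, against 0.836% of genes. Comparisons that share a group, such as those with FOXA2-positive RA cells, share its libraries and are not independent of each other.

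Whether the fraction difference depended on treatment was tested by interaction. Between BMP4 and LDN the FOXA2-positive to FOXA2-negative difference of Krt18 differed by 1.42 ± 0.26 (log2, SE; edgeR adjusted p = 0.0324), 1 of 6 genes called among 17813 (0.0337%). It was lost in 9 of 11 fits with a library left out, with values from 1.29 to 1.49 and adjusted p up to 0.155. The same contrast gave 1.71 ± 0.40 for Krt8 (edgeR adjusted p = 0.296), 1.34 ± 0.62 for Krt7 (0.802) and 1.26 ± 0.53 for Krt19 (0.779). Between BMP4 and RA edgeR called no member (0.00561% of genes), and 2 had an unadjusted p under 0.05, against 4.17% of genes. Krt18 stood at 1.25 ± 0.24 (edgeR adjusted p = 0.197) and was the 1 member DESeq2 called (0.0036, with 0.101% of genes called). In the fit with a replicate block this was 1.27 and called (0.0141), though same-numbered BMP4 fractions were taken as unpaired. Between LDN and RA no member had an unadjusted p under 0.05, against 5.81% of genes, edgeR and DESeq2 called none, and edgeR called 0.00561% of genes.

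The mean ratio of type II to type I transcripts was lower in FOXA2-positive than in FOXA2-negative cells of each treatment, with overlap in BMP4. Proteins were not measured. The ratio of summed Krt7 and Krt8 to summed Krt18 and Krt19, from counts per exon length, was 0.393 ± 0.0782 in FOXA2-negative and 0.238 ± 0.0416 in FOXA2-positive RA cells (SD, n = 3 each). It was 0.296 ± 0.107 and 0.211 ± 0.0727 in BMP4 (n = 3 each), and 0.501 ± 0.0298 (n = 3) and 0.310 ± 0.069 (n = 2) in LDN. The ranges were separate in RA and LDN and overlapped in BMP4. Averaged over treatments the log2 ratio was lower by -0.64 in FOXA2-positive cells, against a pooled SD within groups of 0.35. The difference was -0.53 from Krt8 and Krt18 alone and -0.65 with the longest coding transcripts as lengths. It is a description over members and was given no test.

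**Figure D4:**
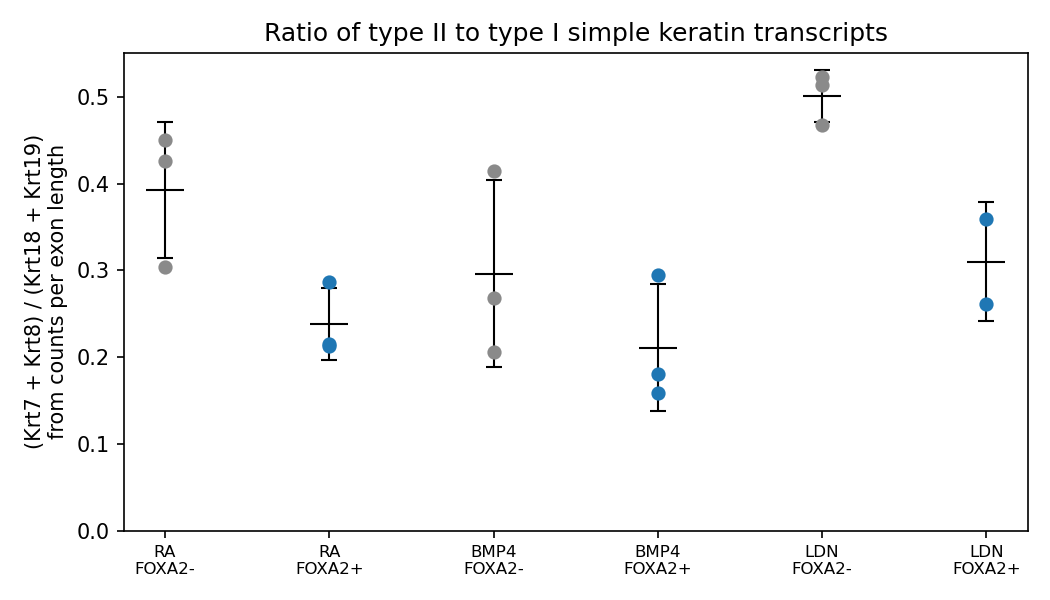
Ratio of type II (Krt7, Krt8) to type I (Krt18, Krt19) transcripts per exon length (vertical axis, from 0) in each library (points; grey FOXA2-negative, blue FOXA2-positive) of the 6 groups on the horizontal axis, with mean and SD as black bars. The highest library, of FOXA2-negative LDN cells, lies at 0.523, and the FOXA2-positive mean is the lower of each pair.

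Across the 17 libraries, Pearson's r of log2 CPM was 0.784 between Krt8 and Krt18, 0.752 between Krt7 and Krt8 and 0.509 between Krt7 and Krt18. Krt19 had -0.545 with Krt7, -0.387 with Krt8 and -0.030 with Krt18. The libraries share groups and scaling, so these values describe the series and carry no test. Among genes that averaged 20 CPM or more, the profiles most like Krt8 were those of Cldn7, a claudin of tight junctions (0.823), Glipr2, Cyb5b, Tubb3 and Krt18. For Krt7 they were Usb1 (0.819), Ubxn4, Fxr2, Cldn7 (0.777) and mt-Tp. For Krt18 they were Rhoc, a small GTPase (0.795), Krt8, Triobp, Klf6 and Crip2. For Krt19 they were Gadd45a (0.893), Tceal9, Gga2, Mmd and Hmga2. Krt7 and Krt8 thus shared Cldn7, and Krt19 shared no gene with another member.

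Of 27 other keratins listed, 11 passed the filter on low counts, and edgeR called none of them in any of the 14 comparisons. Their summed level ran from 8.67 to 28.8 CPM in a library. It was 8.67 to 13.9 CPM in FOXA2-negative RA, 23.5 to 25.5 in FOXA2-negative LDN and 18.9 to 28.8 in FOXA2-positive BMP4 libraries. For LDN against RA in FOXA2-negative cells 9 of the 11 had a positive change, with a median of 3.39 against -0.016 over all genes. Some of these genes had no counts in FOXA2-negative RA cells, which makes such values large. Of 16 other intermediate filament genes, all were tested. In LDN edgeR called Prph, a neuronal filament gene, lower in FOXA2-positive cells (-1.27 ± 0.29, adjusted p = 0.0245), against 0.994% of genes called, and lost it without FOXA2-negative library 2 or 3 or FOXA2-positive library 2 or 3 (0.0598 to 0.238). Averaged over treatments, with 7.62% of genes called, it called Prph and Sync, a muscle filament-associated gene, lower. The call of Sync was lost without both RA libraries numbered 1 (0.0666) and without any of 10 single libraries (0.055 to 0.146). edgeR called neither the stem and mesenchymal filament gene Vim nor the other 13 genes in any fraction comparison.

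Desmosomes and plakins anchor keratin filaments to the cell surface. Of 21 such genes 18 were tested, and edgeR called none between fractions within a treatment. Averaged over treatments, edgeR called 5 lower and 1 higher in FOXA2-positive cells, against 7.62% of all genes called. These were Ppl, encoding periplakin (-0.88 ± 0.16, adjusted p = 0.000816), Pkp3 (-0.95 ± 0.27, 0.0297) and Pkp2 (-0.63 ± 0.16, 0.0153), encoding plakophilins, Dsg2, a desmosomal cadherin gene (-0.67 ± 0.17, 0.0158), and Perp (-0.73 ± 0.22, 0.0396). Itga6, an integrin gene of hemidesmosomes, was called higher (0.60 ± 0.15, 0.0111). The list's median change was -0.28, against -0.03 over all genes. The call of Ppl was kept in all 24 alternatives. That of Pkp2 was lost without FOXA2-positive LDN library 3 (0.0815), and those of Dsg2 (0.0646) and Itga6 (0.0512) without FOXA2-positive LDN library 2. The call of Pkp3 was lost without any of 7 libraries (0.0531 to 0.0878) and that of Perp without any of 11 (0.0523 to 0.146) or without both RA libraries numbered 1 (0.116).

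Of 21 genes for proteins that bind or modify keratins, Sfn and Hspb1 were called lower in FOXA2-positive cells in all 3 treatments. Sfn, the 14-3-3 sigma protein of epithelia, averaged 118, 79.5 and 137 CPM in FOXA2-negative RA, BMP4 and LDN cells and 24.3, 14.4 and 8.58 CPM in FOXA2-positive cells. Its log2 fold changes were -2.27, -2.46 and -4.00 (edgeR adjusted p = 0.000438, 0.00045 and 1.14e-05). Hspb1, a small heat shock protein gene, changed by -1.26, -1.17 and -1.75 (edgeR adjusted p = 0.00232, 0.00592 and 0.000416). The share of all genes called was 1.19%, 0.921% and 0.994%. Without both RA libraries numbered 1 Sfn was still called in RA, and Hspb1 was not (-1.01, 0.0652). The call of Hspb1 in BMP4 was lost without FOXA2-negative library 2 (0.0811). Averaged over treatments, with 7.62% of genes called, edgeR called 3 of the list lower and 2 higher. Sqstm1 was lower besides Sfn and Hspb1 (-0.34, adjusted p = 0.0459), a call lost without both RA libraries numbered 1 (0.0559). Stub1 (0.31, 0.0231) and Mapkapk2 (0.47, 0.0231) were higher. The list's median change was 0.014, against -0.025 over all genes. In BMP4 the members had log2 fold changes of 0.24 (Krt8), 0.59 (Krt18), 1.62 (Krt19) and -0.13 (Krt7). Of these edgeR called Krt19 alone, and DESeq2 also called Krt18 (0.043). Whether they relate to Sfn and Hspb1 was not tested.

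Of 28 genes for factors reported to act on keratin genes, 26 were tested. In FOXA2-positive cells edgeR called 4 lower and none higher in RA (1.19% of all genes called), 2 and none in BMP4 (0.921%), and 5 and none in LDN (0.994%). Averaged over treatments, with 7.62% of genes called, it called Klf6, Tfap2a, Tfap2c, Elf3 and Ovol1 lower and Zeb1, a repressor of epithelial genes, higher (1.203 ± 0.227, SE; adjusted p = 0.00103). The call of Ovol1 was lost without both RA libraries numbered 1 (0.0568) and without any of 11 single libraries (0.0514 to 0.145). Tfap2c, an AP-2 factor gene, and Elf3, an epithelial ETS factor gene, were called lower in each treatment, in every alternative run. Tfap2c averaged 56.0, 56.6 and 82.0 CPM in FOXA2-negative RA, BMP4 and LDN cells and 11.1, 21.8 and 6.47 CPM in FOXA2-positive cells. Its difference between the fractions depended on BMP4 against LDN (2.28 ± 0.38, edgeR adjusted p = 0.013), and with Krt18 it was among the 6 genes called there. That call was lost without any of 6 of the 11 libraries (0.0509 to 0.136). Klf6 was called lower in RA (-0.68, edgeR adjusted p = 0.0434) and LDN (-0.96, 0.0115). In RA that call was lost without both libraries numbered 1 (-0.58, 0.262) and without any of 5 of the 6 libraries (0.111 to 0.219), and in LDN without FOXA2-positive library 2 (0.101) or 3 (0.182) or FOXA2-negative library 3 (0.0764). Its means were 116 and 72.5 CPM in RA, 132 and 126 CPM in BMP4, and 146 and 74.8 CPM in LDN. With BMP4 against LDN, edgeR called 3 of the 26 higher with BMP4 in FOXA2-negative cells (0.196% of genes called) and 4 in FOXA2-positive cells (0.32%), none lower. In FOXA2-negative cells they were Tfap2a (2.58, edgeR adjusted p = 0.00401), Gata3 (2.33, 0.000836) and Cdx2, a trophectoderm and hindgut factor gene (2.57, 0.00243). Cdx2 was not called in a model of those groups alone (0.107). In FOXA2-positive cells they were Tfap2a (4.08 ± 0.53, edgeR adjusted p = 0.000518), Gata3 (2.73 ± 0.42, 0.000802), Tfap2c (1.75 ± 0.30, 0.00284) and Klf5 (1.28 ± 0.28, 0.0425). The call of Tfap2c was lost there without FOXA2-positive LDN library 3 (0.129) or in a model of those groups alone (0.113), and that of Klf5 without any of 4 of the 5 libraries (0.129 to 0.563).

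Of 12 BMP target genes, edgeR called 8 higher with BMP4 than with LDN in FOXA2-negative cells, against 0.196% of all genes, and 7 in FOXA2-positive cells, against 0.32%, none lower. Their median log2 fold changes were 3.06 and 3.08, against 0.00 and 0.01 over all genes. Id1, an inhibitor of bHLH factors, averaged 55.6, 256 and 5.07 CPM in FOXA2-negative RA, BMP4 and LDN cells and 73.6, 250 and 8.56 CPM in FOXA2-positive cells. Id1 was thus highest with BMP4 and lowest with LDN in both fractions, and of the keratins Krt19 had this order of means in both fractions, where RA and BMP4 overlapped in FOXA2-negative cells and LDN overlapped neither. As fitted to all 6 groups, edgeR called Krt19 between BMP4 and RA in neither fraction.

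Markers of other cells moved with the fractions, and their part in the keratin differences was not tested. Calls below are those of edgeR over the treatments together, where 7.62% of genes were called. The 12 pluripotency markers summed to 681 to 1235 CPM in FOXA2-negative and 316 to 457 CPM in FOXA2-positive libraries, and 11 were called lower in FOXA2-positive cells over the treatments, Klf4 being the exception. Of 12 surface ectoderm markers 10 were tested and 5 called lower (Tfap2a, Dlx3, Wnt6, Epcam and Cdh1). Their sums were 436 to 606 CPM in FOXA2-negative and 260 to 455 CPM in FOXA2-positive libraries. Gata3 was the 1 tested marker with a positive averaged change (0.47, edgeR adjusted p = 0.184). The epidermal markers Krt14 and Trp63 were near the floor. Krt14 had 1 count in the whole series. Trp63 had 50, none of them in a FOXA2-positive group or in FOXA2-negative BMP4 cells. Krt5 had counts in every group, with a mean of 5.06 ± 2.86 CPM (SD) in FOXA2-negative LDN cells. Its means in the other groups were at most 1.49 CPM. Of 10 trophectoderm markers, Tfap2c and Ascl2 were called lower. Their sums were 111 to 214 CPM in FOXA2-negative libraries, and 66.3 to 70.1 CPM in RA, 132 to 188 CPM in BMP4 and 33.6 to 47.3 CPM in LDN FOXA2-positive libraries. The trophectoderm factor Elf5 stayed at or below 0.126 CPM in group mean. Of 16 endoderm markers Sox17, Dab2 and Foxa1 were called higher and Apoe lower, and 10 of 15 tested had a positive change. Their sums were lower in FOXA2-positive than in FOXA2-negative libraries in RA (497 to 643 against 689 to 793 CPM). The same held in LDN (606 to 629 against 716 to 919 CPM), and in BMP4 they overlapped (630.3 to 745.5 against 651.1 to 689.5 CPM). Of 10 notochord markers none was called, with sums of 35.7 to 75.6 CPM. Noto had 3 counts and Shh 11 counts in the whole series. Of 10 amnion and extraembryonic mesoderm markers Ahnak was called lower, and of 10 neural progenitor markers Cdh2 and Ncam1 were called higher. The call of Ahnak was lost without both RA libraries numbered 1 (0.0716), and a single left-out library ended the calls of Ahnak (7 libraries, 0.0558 to 0.0905), Dab2 (4 libraries, 0.0508 to 0.208) and the pluripotency marker Klf2 (FOXA2-positive LDN library 2 or 3, 0.0597 and 0.0602).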

How the data were processed

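The authors deposited raw counts per Ensembl gene, with no normalization, for each of 17 SMART-Seq v2 libraries. HTSeq 0.11.2 is in the submitters' processing notes, with cutadapt 1.18, UMI-tools 1.0.0, the build mm10 and DESeq2 1.26.0. An aligner, annotation release or strand setting is not given in the sources used here. The 5 summary lines, 49.3% to 54.4% of a table's reads, were left out; reads that were not unique (16.0% to 21.5%) are among them, so reads shared with a keratin pseudogene were not counted.

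Groups came from the titles. In R 4.3.3, edgeR 4.0.16 (filterByExpr with minimum count 10 and total 15, 17813 genes kept; TMM; robust quasi-likelihood) was fitted to 6 groups, with 11 residual degrees of freedom. P-values of 14 comparisons were adjusted by Benjamini-Hochberg over all genes, with a threshold of 0.05. The SE is the log2 fold change over the square root of F. Levels are TMM-scaled CPM unless said otherwise. The fitting was tested on simulated data. Alternatives were RLE scaling, no TMM factor, DESeq2 1.42.0, other filters, models of the compared groups, a replicate block, and left-out libraries; coding-transcript lengths were added after seeing the data. Symbols and lengths came from GENCODE M21, promoters from RefSeq; for Krt19 no promoter was used.

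Members and gene lists were chosen with earlier results of these data known. The members are named throughout; list genes are named where called, with up to 4 others by level, and for likeness the 5 genes with the highest r per member (prior count 2). Names given beside marker sums for low or single-exception genes were chosen after their values were seen. A permutation test planned for the chain ratio was not run, since the ratio is a score over chosen members. Deviations from group means over 6669 genes correlated at 0.587, 0.238 and 0.277 between same-numbered RA fractions, each over the limit of 0.1 for pairing. In BMP4 and LDN they correlated at 0.051 to 0.079, and these fractions were taken as unpaired. Between same-numbered libraries of different treatments, within a fraction, the values ran from -0.163 to 0.283.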

Additional observations from a re-analysis of the deposited data

Results flagged for a closer look

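The difference between FOXA2-positive and FOXA2-negative cells in Krt18 was not the same with BMP4 as with LDN. The interaction was 1.42 on the log2 scale (edgeR adjusted p = 0.0324), with Krt18 in all 3 FOXA2-positive BMP4 libraries above the 3 FOXA2-negative ones, and in both FOXA2-positive LDN libraries below the 3 FOXA2-negative ones. It was flagged because the test of the difference itself passed the threshold, and it rests on 11 libraries of which the loss of any of 9 ended the call.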

How the results depend on the processing

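The number of members called depended on the setting more than the values did. Between RA fractions it was 1, but 2 with no TMM factor, no filter on low counts, the filter of 5 CPM in 2 libraries, DESeq2 or the replicate block, and 0 in a model of the compared groups alone or without both RA libraries numbered 1. Between BMP4 fractions it was 1, and 2 with DESeq2 or the replicate block, where Krt18 was added (0.60, adjusted p = 0.0255 with the block). For BMP4 against RA in FOXA2-positive cells it was 1, and 2 with no filter or DESeq2. For LDN against RA it was 0, and with no filter 2 in FOXA2-negative and 1 in FOXA2-positive cells, and with DESeq2 1 in each. For BMP4 against LDN in FOXA2-negative cells it was 0, but 2 with no filter, 3 with DESeq2 and 1 in a model of those groups. Averaged over treatments it was 2, 3 with DESeq2 or the filter of 5 CPM in 2 libraries, which added Krt7, and 4 with no TMM factor or with the replicate block, which added Krt7 and Krt18. The interaction of fraction with BMP4 against RA had 0, but 2 with no filter, 1 with DESeq2 and 1 with the replicate block, and that with BMP4 against LDN had 1, and 2 with no filter. The causes were not tested. With the replicate block the number of members called did not change in the other comparisons. The numbers pair the libraries only in RA; in BMP4 and LDN they share only a number. The mean of Krt18 in FOXA2-positive LDN cells was 131.2 CPM without TMM.

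Counts over all genes also moved. Between fractions edgeR called 212 genes in RA, 164 in BMP4 and 177 in LDN, DESeq2 called 486, 476 and 545, and edgeR with no filter 466, 411 and 460. With the replicate block they were 362, 282 and 220, and in RA the count was 127 in a model of the compared groups and 109 without both libraries numbered 1. For BMP4 against RA the counts were 14 and 14 in FOXA2-negative and FOXA2-positive cells, 74 and 55 by DESeq2, 94 and 100 with no filter, 3 and 25 in models of the compared groups, and 6 in FOXA2-negative cells with the replicate block; without both RA libraries numbered 1 they were 9 and 9. For LDN against RA they were 7 and 37, 45 and 230 by DESeq2, 83 and 294 with no filter, and 4 and 9 in models of the compared groups. For BMP4 against LDN they were 35 and 57, 137 and 189 by DESeq2, 141 and 196 with no filter, and 95 for FOXA2-positive cells alone; over both fractions 140 became 317 by DESeq2 and 318 with no filter. For the interactions with BMP4 against RA, LDN against RA and BMP4 against LDN they were 1, 1 and 6 genes, 16, 3 and 38 by DESeq2 and 31, 31 and 54 with no filter. For fractions averaged over treatments, 1357 genes became 1827 by DESeq2, 1726 with no filter and 1406 with the replicate block. Counts over all genes with no TMM factor, the filter of 5 CPM or single libraries left out are not given here. The numbers of members called in those settings thus stand without that background.

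With each library left out in turn, members called ranged from 0 to 2 between fractions in RA and LDN, 0 to 1 in BMP4 and 2 to 3 over the treatments. They ranged from 1 to 2 for BMP4 against RA in FOXA2-positive cells, from 0 to 1 for BMP4 against LDN in either fraction, and from 0 to 1 for the interactions of BMP4 with RA and with LDN. They stayed at 1 for BMP4 against LDN over both fractions and at 0 in the other comparisons. The ratio difference ranged from -0.72 to -0.54. Of 161 calls of genes in the lists, 90 were kept in every alternative run, and 63 were lost with at least 1 library left out. No called value of a member changed sign. Of values not called, some did with a library left out. Between fractions the ranges were -0.28 to 0.11 (Krt7) and -0.043 to 0.51 (Krt8) in BMP4 and -0.25 to 0.82 (Krt19) in LDN. For BMP4 against RA in FOXA2-negative cells they were -0.44 to 0.056 (Krt7) and -0.10 to 0.33 (Krt19), with 0.048 for Krt7 without both RA libraries numbered 1. For Krt7 in FOXA2-positive cells they were -0.0013 to 1.12 (LDN against RA) and -0.72 to 0.41 (BMP4 against LDN). For the interaction of LDN with RA they were -0.52 to 0.089 (Krt8), -0.32 to 0.041 (Krt18) and -0.87 to 0.19 (Krt19).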
